A study of Mus musculus with 9 samples.

Results

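Genes that mark the podocyte, the filtering cell of the kidney glomerulus, were followed in renal vesicles of wild-type and Lim1 mutant mouse embryos. The 9 genes were 4 transcription factors active early in the podocyte lineage (Foxc1, Foxc2, Wt1 and Tcf21) and 5 genes for proteins of the developing or differentiated podocyte (Podxl, Nphs1, Synpo, Ptpro and Magi2). They were found by symbol in the platform annotation, keeping probe sets with a single gene symbol. This gave 13 probe sets for 8 of the 9 genes, out of 45101 probe sets on the array. Magi2, a scaffold that binds nephrin, was not analysed here.

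The renal vesicle is the first epithelial structure of the nephron. Its proximal cells go on to form podocytes, in which transcription factors such as Wt1, Tcf21 and the forkhead factors Foxc1 and Foxc2 act before the slit diaphragm proteins appear. These 4 factors are not private to podocytes, since Wt1 is also known from the cap mesenchyme and Foxc1, Foxc2 and Tcf21 from kidney mesenchyme. Nephrin, the product of Nphs1, belongs to the slit diaphragm between mature foot processes, and synaptopodin, the product of Synpo, to their actin cytoskeleton.

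Vesicles were taken by laser capture microdissection from E12.5 embryonic kidneys, with 5 wild-type and 4 mutant samples described as biologically independent and about 30 to 50 vesicles in each. Lim1 is the older name of Lhx1, a gene for a homeodomain factor with LIM domains that acts in the first nephron epithelia. The sources used here give neither the mutant allele nor the strain, nor how many embryos or litters stand behind a sample, and the labels give no treatment. The comparison asks how the expression profile of the vesicle differs without normal Lim1 function. RNA passed through 2 rounds of amplification before hybridisation, which favours the 3 prime end of transcripts. With so few arrays, the precision of every value below is limited by their number.

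The arrays differed among themselves. Median signals ranged from 143.8 to 194.7, and the mean correlation of an array with the others was lowest on wild-type arrays 3 (0.783) and 1 (0.802), against 0.826 to 0.864 elsewhere. The signal ratio of the 3 prime to the 5 prime control probe set of Gapdh, a measure of transcript length, ran from 12.4 on wild-type array 2 to 87.6 on wild-type array 3, and from 17.8 to 61.4 on the mutant arrays. At 1 Lhx1 probe set all mutants read 6.88 to 10.5, against 2327 to 17590.0 in the wild type, and at the other the groups overlapped.

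Reference promoters of the factors place the genes on the genome before their values are given. In RefSeq (GRCm38.p6), Foxc1 lies at 13:31806646-31810635, Foxc2 at 8:121116171-121118895, Wt1 at 2:105126529-105173614 and Tcf21 at 10:22817263-22820143. RefSeq promoter sequence was at hand for 4 of the 8 measured genes, and the 250 bases before the start are shown for the early factors among them, Foxc1 (chr13:31806396-31806645, plus strand) and Tcf21 (chr10:22820144-22820393, minus strand), with capitals for TGGGNG.
Foxc1: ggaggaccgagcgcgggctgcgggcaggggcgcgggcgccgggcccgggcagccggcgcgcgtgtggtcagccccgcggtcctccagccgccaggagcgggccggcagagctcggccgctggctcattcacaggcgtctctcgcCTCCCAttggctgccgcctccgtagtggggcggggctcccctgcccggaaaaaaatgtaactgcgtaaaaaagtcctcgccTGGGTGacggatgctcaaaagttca
Tcf21: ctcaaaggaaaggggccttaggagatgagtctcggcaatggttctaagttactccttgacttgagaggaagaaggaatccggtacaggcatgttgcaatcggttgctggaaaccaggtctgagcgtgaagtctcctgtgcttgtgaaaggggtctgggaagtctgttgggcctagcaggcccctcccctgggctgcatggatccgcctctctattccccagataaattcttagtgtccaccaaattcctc
The letters searched on both strands were TAATTA, a core bound by LIM homeodomain factors, TGTTTAC, a forkhead site, CANNTG, the E-box bound by basic helix-loop-helix factors such as Tcf21, and the capitals above, part of the site of Wt1. The Foxc1 window held 2 matches to this last motif and the Tcf21 window none, while 59.6% of 32851 promoter windows of the same length held it. Neither window held the LIM homeodomain core, the forkhead site or the E-box, which 4.84%, 3.17% and 66.2% of all windows held. A match is only a description of the letters.

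At adjusted p 0.05 over all 27022 probe sets tested, none of the podocyte probe sets passed in limma, against a background of 0.0333% (9 probe sets). Foxc2 came nearest, with a mutant mean 2.753 times the wild-type mean, and Podxl and Foxc1 had the next largest differences at the probe sets representing their genes. Wt1, Tcf21 and Nphs1 had smaller differences, and Synpo and Ptpro were too dim to be tested. A probe set was tested if its mean over all 9 arrays reached a log2 value of 7.174, which corresponds to a signal of about 102. Of the 13 podocyte probe sets, 9 passed this filter, and 4 (both of Synpo and both of Ptpro) did not. Of all 13, 11 had a mutant mean above the wild-type mean on the normalised log2 scale, where 52.7% of tested probe sets and 49.7% of all probe sets other than controls did. At an unadjusted p under 0.05 stood 2 of the 9 tested, with a background of 6.67%. These were Foxc2 and the dimmer Podxl probe set, the latter having passed the filter only through its mutant values.

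**Figure D1:**
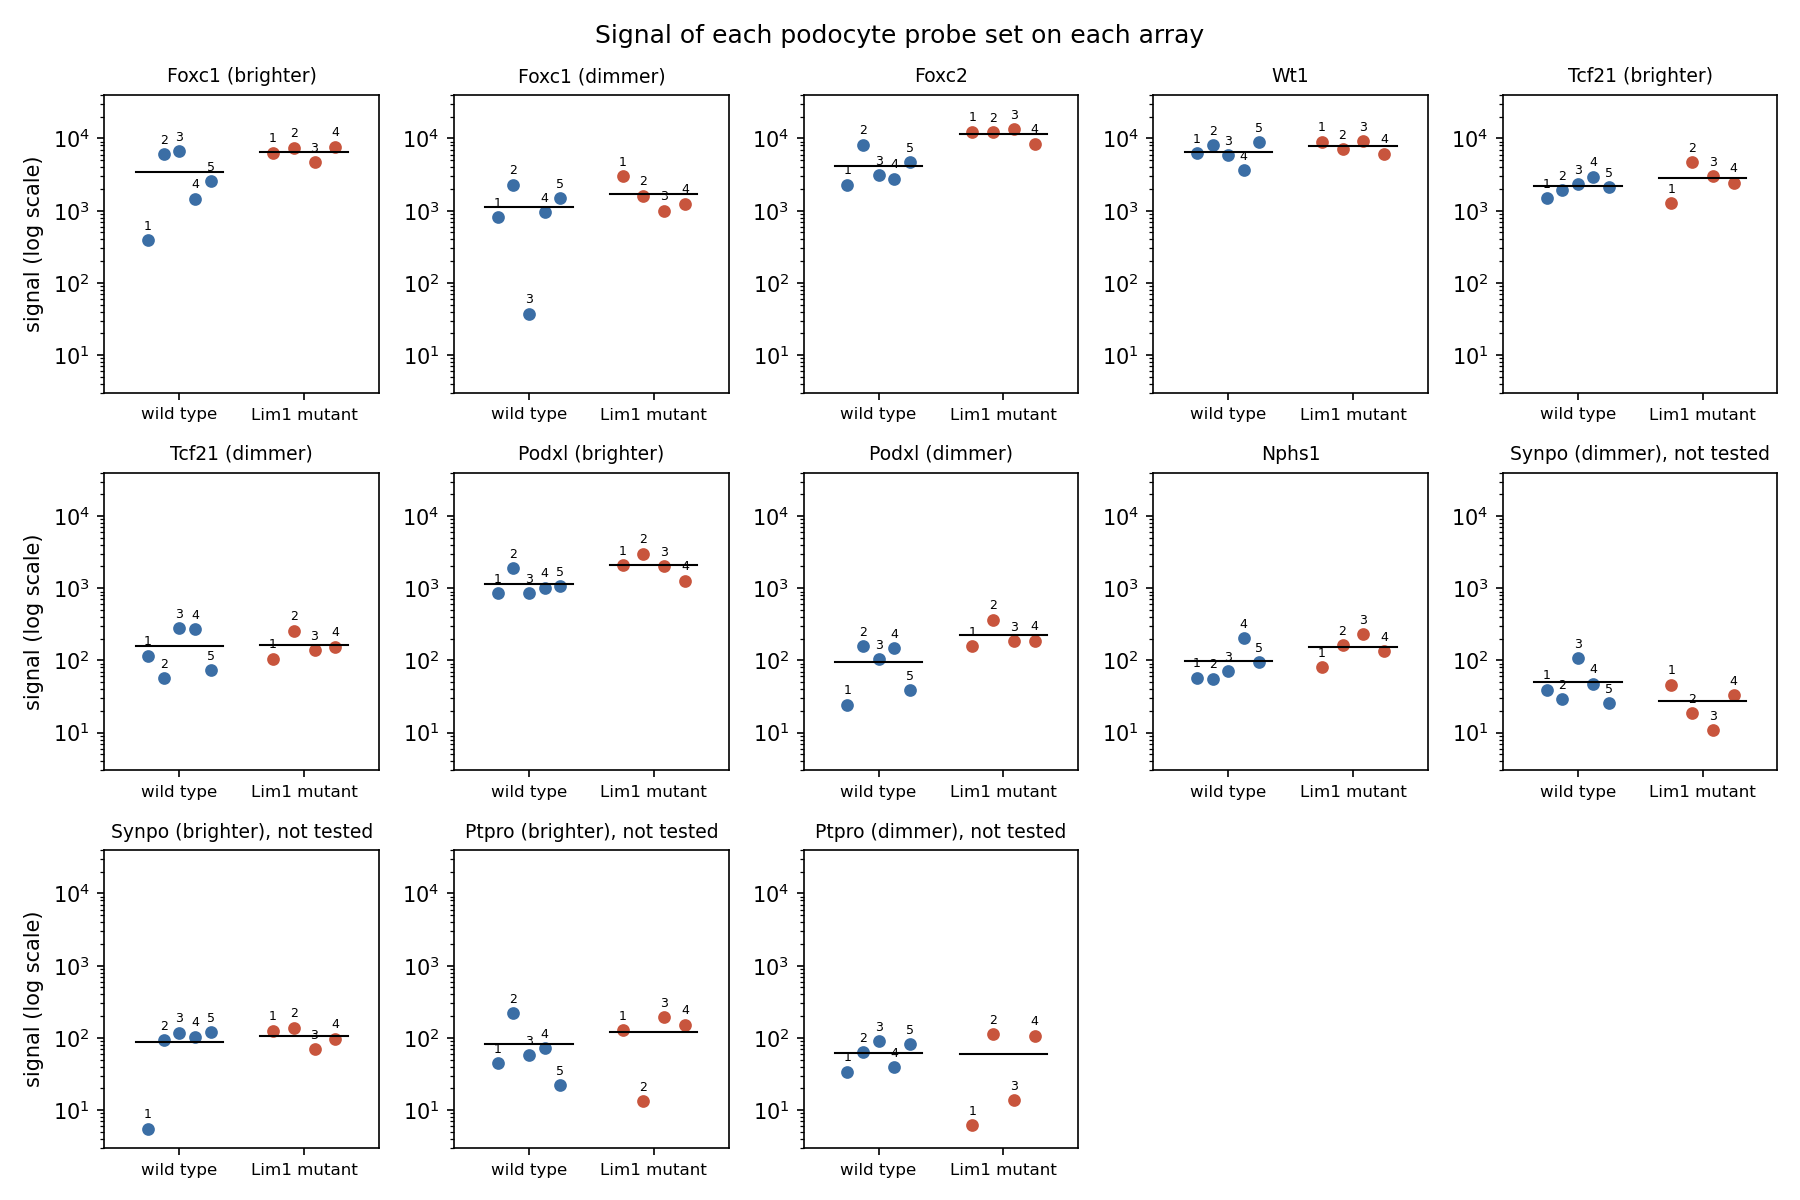
Deposited signal (log scale) of each of the 13 podocyte probe sets on 5 wild-type (blue) and 4 Lim1 mutant (red) arrays, with the array number above each point and a line at the group mean. The 4 mutant arrays lie above all wild-type arrays for Foxc2, and the groups intermingle for Wt1, Tcf21, Synpo and Ptpro.

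Foxc2 encodes a forkhead factor of early podocytes, of other mesenchyme and of vessels. Its signals on wild-type arrays 1 to 5 were 2296, 8207, 3074, 2772 and 4735, and on mutant arrays 1 to 4 they were 12394, 12219.5, 13399 and 8415. The 4 mutant arrays lay above all 5 wild-type arrays, although wild-type array 2 at 8207 and mutant array 4 at 8415 nearly met. Such a lack of overlap with mutants higher was found at 1.66% of all tested probe sets. Wild-type arrays had a mean of 4217 ± 2412 (SD, n = 5), and mutant arrays one of 11607 ± 2190.3 (n = 4). The log2 difference was 1.59 ± 0.36 (SE), with a 95% interval of 0.80 to 2.38 and an adjusted p of 0.359 from limma. By its p the probe set stood at rank 72 of the 27022. The exact permutation test over all splits of the arrays gave a two-sided p of 0.0159, where the smallest possible is 0.00794. Adjusted by Benjamini-Hochberg over the 9 tested podocyte probe sets, this permutation p was 0.143. In bulk RNA of this kind, a change in the number of cells of a type and a change in RNA per cell cannot be told apart. Leaving out 1 array at a time gave differences of 1.42 to 1.87, the highest without wild-type array 2 (adjusted p = 0.137 in limma).

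Foxc1, the close relative of Foxc2 with overlapping roles in mouse kidney development, had 2 probe sets designed from the same sequence record. At the brighter one the wild-type arrays read 390.2, 6009, 6727, 1468 and 2578 in order, and the mutant arrays read 6314, 7444, 4659.96 and 7649. The mutants were close together, with a coefficient of variation of 21.0%, and the wild-type arrays were spread over a wide range, with one of 81.5%. Wild-type arrays 2 and 3 lay inside the mutant range, and the other 3 lay below it. The means were 3434 ± 2799 (SD, n = 5) and 6517 ± 1369.98 (n = 4), a log2 difference of 1.43 ± 0.66 with a 95% interval of -0.02 to 2.88 (limma adjusted p = 0.748, exact permutation p = 0.111). Without wild-type array 1 the difference was 0.88 (limma adjusted p = 0.763). It was 2.37 (limma adjusted p = 0.329) without wild-type arrays 2 and 3, an alternative chosen after their marker levels were seen.

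The dimmer Foxc1 probe set gave another picture of single arrays. The wild type read 808, 2301, 37.6, 952 and 1478, and the mutants read 2995, 1611, 1001 and 1248. Wild-type array 3 was thus the brightest wild-type array at one probe set and by far the dimmest at the other, with a ratio of 179 between them, while wild-type array 1 was the only array on which the second probe set was brighter (ratio 0.483). Wild-type array 3 also had the highest Gapdh ratio of the series, and the part of transcript length in this disagreement was not tested. The log2 difference at the dimmer probe set was 1.08 ± 0.85 with a 95% interval of -0.78 to 2.95 (limma adjusted p = 0.861, exact permutation p = 0.357).

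**Figure D2:**
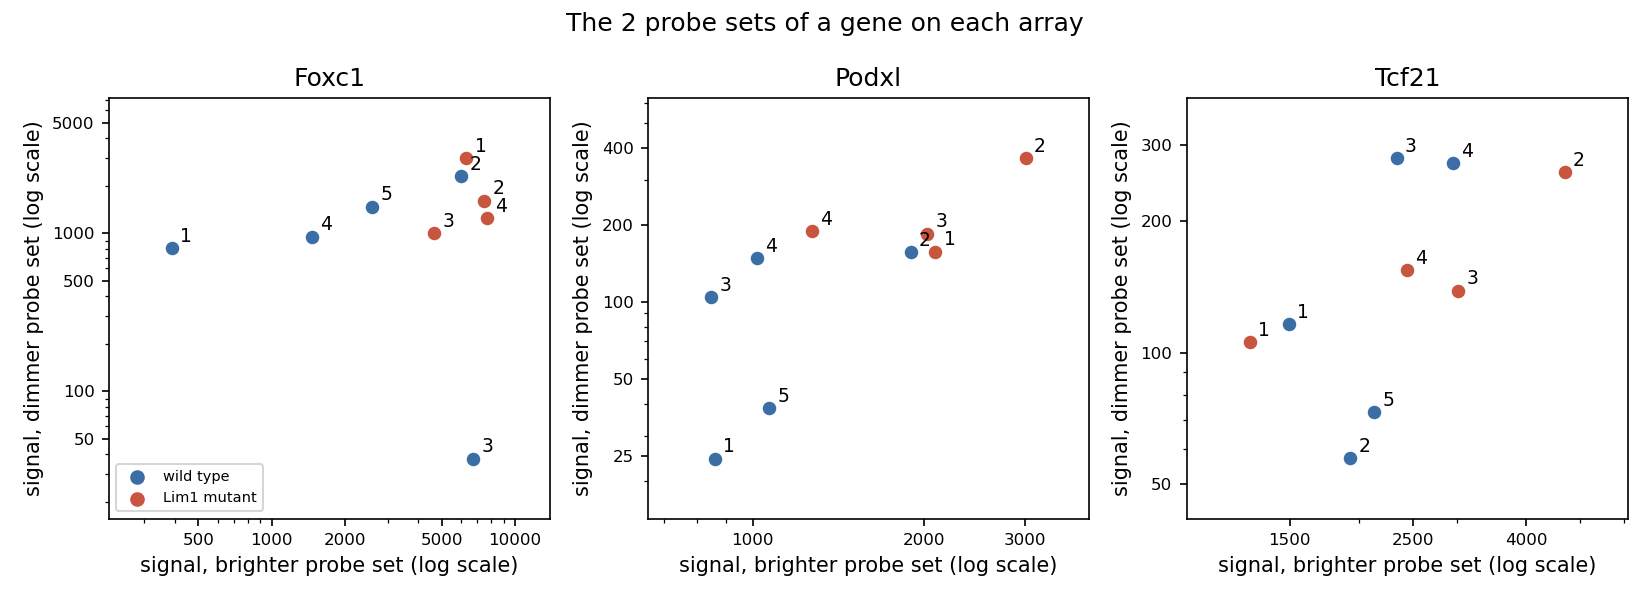
Signals of the brighter (x axis) and dimmer (y axis) probe set of Foxc1, Podxl and Tcf21 on each array, on log scales, with wild-type arrays in blue, mutant arrays in red and the array number beside each point. Wild-type array 3 stands alone at the lower right of the Foxc1 panel, at 6727 and 37.6.

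Whether the 2 forkhead genes differed in their response was asked within each array. The log2 ratio of Foxc2 to the brighter Foxc1 probe set was 2.17, 0.46, -1.13, 0.99 and 0.83 on wild-type arrays 1 to 5 and 1.002, 0.67, 1.46 and 0.14 on mutant arrays 1 to 4. The mutant values fell within the wild-type range. Means were 0.66 ± 1.19 (SD, n = 5) and 0.82 ± 0.55 (n = 4), a mutant minus wild-type difference of 0.16 (exact permutation p = 0.825). Against the dimmer Foxc1 probe set the difference was 0.50 (exact permutation p = 0.619). A difference between Foxc2 and Foxc1 in their response was therefore not detectable with these arrays.

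Wt1, the zinc finger factor needed for kidney formation and later for podocyte identity, was measured at 1 probe set, of a design that can match several transcripts. The wild-type arrays read 6198, 8079, 5846, 3634 and 8865, and the mutants read 8995, 7089, 9090.4 and 6194. The groups overlapped across most of their range, with means of 6524 ± 2050.3 (SD, n = 5) and 7842 ± 1434 (n = 4). The log2 difference was 0.33 ± 0.29 with a 95% interval of -0.29 to 0.96 (limma adjusted p = 0.877, exact permutation p = 0.278). Without wild-type array 4, the lowest of the 9, the difference was 0.15.

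Tcf21, a basic helix-loop-helix factor of kidney mesenchyme and podocytes, was measured at 2 probe sets. The brighter one read 1494, 1929.5, 2336, 2952 and 2129 in the wild type and 1271, 4693, 3015 and 2442 in the mutants. Mutant array 1 was the lowest and mutant array 2 the highest of all 9 arrays. The means were 2168 ± 538 (SD, n = 5) and 2855 ± 1424 (n = 4), a log2 difference of 0.27 ± 0.41 with a 95% interval of -0.63 to 1.17 (limma adjusted p = 0.940, exact permutation p = 0.50). Without mutant array 2 the difference was -0.026. The dimmer probe set ran from 57.1 to 279.6 in the wild type and from 106 to 259 in the mutants, with a log2 difference of 0.09 ± 0.48 (limma adjusted p = 0.984, exact permutation p = 0.817).

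**Figure D3:**
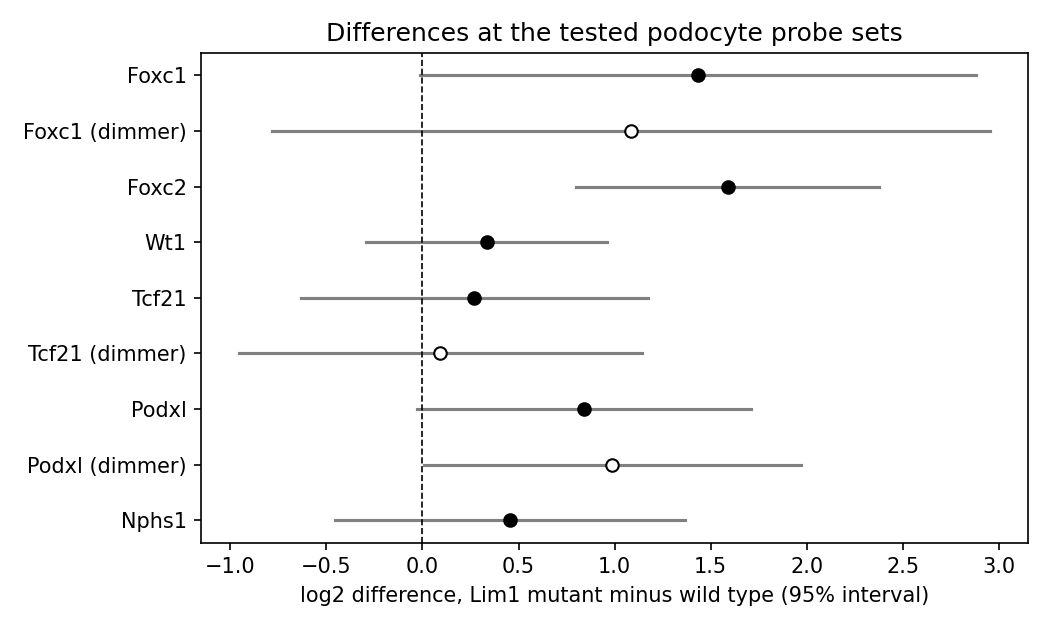
Mutant minus wild-type log2 difference (point) with its 95% interval (line) at the 9 tested podocyte probe sets, filled points for the probe set representing a gene. The intervals of Foxc2 (0.80 to 2.38) and of the dimmer Podxl probe set (0.01 to 1.97) lie above 0, before adjustment for the number of probe sets tested. The dimmer Podxl probe set passed the filter only through its mutant values.

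Podxl encodes podocalyxin, a charged sialomucin of the apical podocyte surface that is also made by vascular endothelium. At the brighter probe set the wild-type arrays read 859, 1891, 846, 1016 and 1070.35, and the mutants read 2091, 3009, 2023 and 1268. Of the 4 mutants, 3 lay above every wild-type array, and mutant array 4 lay below wild-type array 2. The means were 1137 ± 433 (SD, n = 5) and 2098 ± 713 (n = 4), or 1.846 times as high in the mutants. The log2 difference was 0.84 ± 0.40 with a 95% interval of -0.03 to 1.71 (limma adjusted p = 0.757, exact permutation p = 0.0397, or 0.143 adjusted).

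The dimmer Podxl probe set also had array 2 highest in each group, but it ordered the other arrays of a group differently. It read 24.4, 156.1, 104, 148 and 38.5 in the wild type and 157.1, 364, 185 and 188 in the mutants. The groups just failed to overlap in the deposited signals (mutant array 1 against wild-type array 2) and overlapped after quantile normalisation. On the deposited scale 2 of the 9 tested podocyte probe sets had no overlap, this one and Foxc2, against 2.39% of all tested probe sets. On the normalised scale Foxc2 was the 1 without overlap, against 2.25%. The dimmer Podxl probe set passed the filter, at a log2 value of 7.174, only through the mutants. Their normalised values were 7.49 to 8.70, and the wild-type values were 6.12 to 7.58, with a mean below the filter. Its higher mutant values are thus part of why it was tested at all. The log2 difference was 0.99 ± 0.45 with a 95% interval of 0.01 to 1.97 (limma adjusted p = 0.748, exact permutation p = 0.0476, or 0.143 adjusted). Of the endothelial markers, all 9 tested had differences below 0, with a median of -0.86, where 52.7% of all tested probe sets were above 0. Their summed signal was 4751, 5850, 18741, 14348 and 4657 on wild-type arrays 1 to 5 and 3764 to 5509 in the mutants. High wild-type sums were thus those of arrays 3 and 4. The part of endothelium in the Podxl values was not tested.

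Nphs1 encodes nephrin, the backbone of the slit diaphragm. It read 57.3, 56.1, 71.0, 204 and 95.1 in the wild type and 80.2, 163, 232 and 135 in the mutants. Its mean log2 value of 7.251 was only just above the filter, and the mean of its wild-type arrays alone was below it. The groups overlapped, with means of 96.7 ± 62.0 (SD, n = 5) and 152 ± 63.3 (n = 4). The log2 difference was 0.45 ± 0.42 with a 95% interval of -0.46 to 1.36 (limma adjusted p = 0.884, exact permutation p = 0.262), on a scale that understates changes of dim probe sets. Without mutant array 3 the difference was 0.23, with the probe set then below the filter, and without mutant array 1 it was 0.69.

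Synpo and Ptpro lay below the filter and have no adjusted p. Synpo, at its brighter probe set, read 5.52, 93.0, 118, 104 and 119 in the wild type and 127, 138, 69.5 and 97.7 in the mutants, so that wild-type array 1 alone stood apart. Its other probe set ran from 25.8 to 107 in the wild type and from 10.8 to 46.3 in the mutants. Ptpro encodes GLEPP1, a receptor tyrosine phosphatase of foot processes. Its brighter probe set read 44.5, 221, 57.4, 72.2 and 22.2 in the wild type and 129, 13.4, 194 and 153 in the mutants, and its dimmer one ran from 34.0 to 90.3 and from 6.24 to 113. The log2 differences were 0.23 and -0.46 for the brighter and dimmer Synpo probe sets and 0.34 and -0.25 for those of Ptpro, so the pair of each gene pointed in opposite directions. Thus the genes for proteins specific to differentiated podocytes were near or below the limit of what could be tested, and the members with clear signal were the early factors and Podxl, which other kidney tissues also express.

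The members had no common order of arrays. Wild-type array 2 was the highest wild-type array for Foxc2, for both Podxl probe sets, for the dimmer Foxc1 probe set and for the brighter Ptpro probe set, but it was the lowest for Nphs1 and for the dimmer Tcf21 probe set. Wild-type array 1 was the lowest for Foxc2, the brighter Foxc1 and Tcf21 probe sets and the dimmer Podxl probe set. Mutant array 4 was the lowest mutant for Foxc2, Wt1 and the brighter Podxl probe set and the highest for the brighter Foxc1 probe set.

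Other podocyte genes were counted in 4 further lists, chosen with earlier results of these data known, and none of their members passed over all probe sets. Among 8 tested transcription factors 6 had differences above 0 and 2 below, with a median of 0.23, where the median of all tested probe sets was 0.03. One of them was Lmx1b, the LIM homeodomain factor of podocytes, with signals of 535 ± 172 (SD, n = 5) and 1279 ± 678 (n = 4) and a log2 difference of 1.04 ± 0.51 (limma adjusted p = 0.776). Among 14 tested slit diaphragm and junction genes 9 were above 0 and 5 below, with a median of 0.12. Of these, Iqgap1, an actin-binding scaffold found with nephrin, had 25720.0 to 34560.0 in the wild type and 42410.0 to 50510.0 in the mutants. Its log2 difference was 0.62 ± 0.12 (limma adjusted p = 0.236), with no overlap, as at 1.66% of all tested probe sets with mutants higher.

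Among 12 tested cytoskeletal genes 8 were above 0 and 4 below, with a median of 0.15, and 4 had an unadjusted p under 0.05, as did 6.67% of all tested probe sets. Slc9a3r1, a scaffold that links membrane proteins to ezrin, read 2931 to 7042 in the wild type and 7251 to 11780.0 in the mutants, with a log2 difference of 0.91 ± 0.28 (limma adjusted p = 0.651). The other 3 were named after their values were seen: Pdpn, the podocyte surface protein podoplanin (1.31), Inf2, a formin (-1.31), and Ezr, which is ezrin itself (-0.71). Among 14 tested genes of the glomerular basement membrane and secreted factors 7 were above 0 and 7 below, with a median of -0.01.

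Among 11 tested paralogs of the podocyte genes 5 were above 0 and 6 below, with a median of -0.13. Foxd2, a forkhead factor of kidney mesenchyme, had no overlap between the groups, as had 1.66% of all tested probe sets with mutants higher. It read 550.1 to 1201 in the wild type and 1396 to 2385 in the mutants, with a log2 difference of 1.01 ± 0.38 (limma adjusted p = 0.715). Tcf23 and Egr1, again named after their values were seen, also had an unadjusted p under 0.05, with differences of -2.70 and -1.66. That made 3 of the 11, against 6.67% of all tested probe sets.

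Markers of the neighbouring tissues were set beside the podocyte genes. Of these, Wt1 is also known from the cap mesenchyme and Foxc1, Foxc2 and Tcf21 from kidney mesenchyme. None of the markers tested was at 0 on any array, but all had passed the filter on mean signal. Some were very low on single arrays, such as Ret in the mutants (lowest 4.14) and Sox17 in the wild type (lowest 4.31). The presence of each tissue on each array is thus not shown. Ureteric bud markers had 8 of 9 tested differences below 0, with a median of -0.88, where 52.7% of all tested probe sets were above 0. Their summed signal was 82443 on wild-type array 2 and 8892 to 30734 on the other arrays. The part of ureteric bud in the values of that array was not tested. The summed signal of 11 cap mesenchyme markers was 30672 to 43639 in the wild type and 35671 to 40995 in the mutants, so the mutant range lay inside the wild-type range. Of the 11, 6 were above 0 and 5 below, with a median of 0.04. Meox1 and Hoxc10, homeobox genes of this list, had no overlap between the groups, as had 1.66% of all tested probe sets with mutants higher. Their differences were 2.18 ± 0.71 and 0.85 ± 0.30 (limma adjusted p = 0.668 and 0.696). Meox2, named after its values were seen, pointed the other way (-2.17 ± 0.66, limma adjusted p = 0.647). These were the 3 of the 11 with an unadjusted p under 0.05, against 6.67% of all tested probe sets. Six2, the defining marker of the cap, read 858.1 to 1154 and 1134 to 3006 (0.88 ± 0.40, limma adjusted p = 0.748). The part of cap mesenchyme in the Foxc2 difference was not tested.

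The summed signal of 14 stroma markers was 30125, 68415, 204030.0, 38172 and 31707 on wild-type arrays 1 to 5 and 34257, 75164, 66554 and 39626 on mutant arrays 1 to 4. In the wild type the brighter Foxc1 probe set was highest on arrays 2 and 3, the arrays with the highest stroma sums. At the dimmer Foxc1 probe set, wild-type array 3 was instead the lowest of all arrays, at 37.6. Mutant arrays 1 and 4, with stroma sums of 34257 and 39626, read 6314 and 7649 at the brighter probe set. Wild-type arrays 1, 4 and 5, at 30125, 38172 and 31707, read 390.2, 1468 and 2578 there. At the dimmer one these mutant arrays read 2995 and 1248 and these wild-type arrays 808, 952 and 1478. Foxc2 was at 3074 on wild-type array 3, which had the largest stroma sum. Its highest wild-type signal, 8207, was on array 2, which had the next largest wild-type sum, 68415. Of the 14 stroma markers 5 were above 0 and 9 below, with a median of -0.32. Foxd1, the defining stromal factor, read 296.9 to 6015 and 1553 to 6232 (log2 difference 0.47 ± 0.81, limma adjusted p = 0.947). Meis1 and Meis2, homeobox factors of this list, had no overlap (0.85 ± 0.25 and 0.70 ± 0.25, limma adjusted p = 0.647 and 0.696). Such a lack of overlap with mutants higher was found at 1.66% of all tested probe sets. Meis1 and Meis2 were also the 2 of the 14 with an unadjusted p under 0.05, against 6.67% of all tested probe sets. The part of stroma in the Foxc1 and Foxc2 values was not tested.

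**Figure D4:**
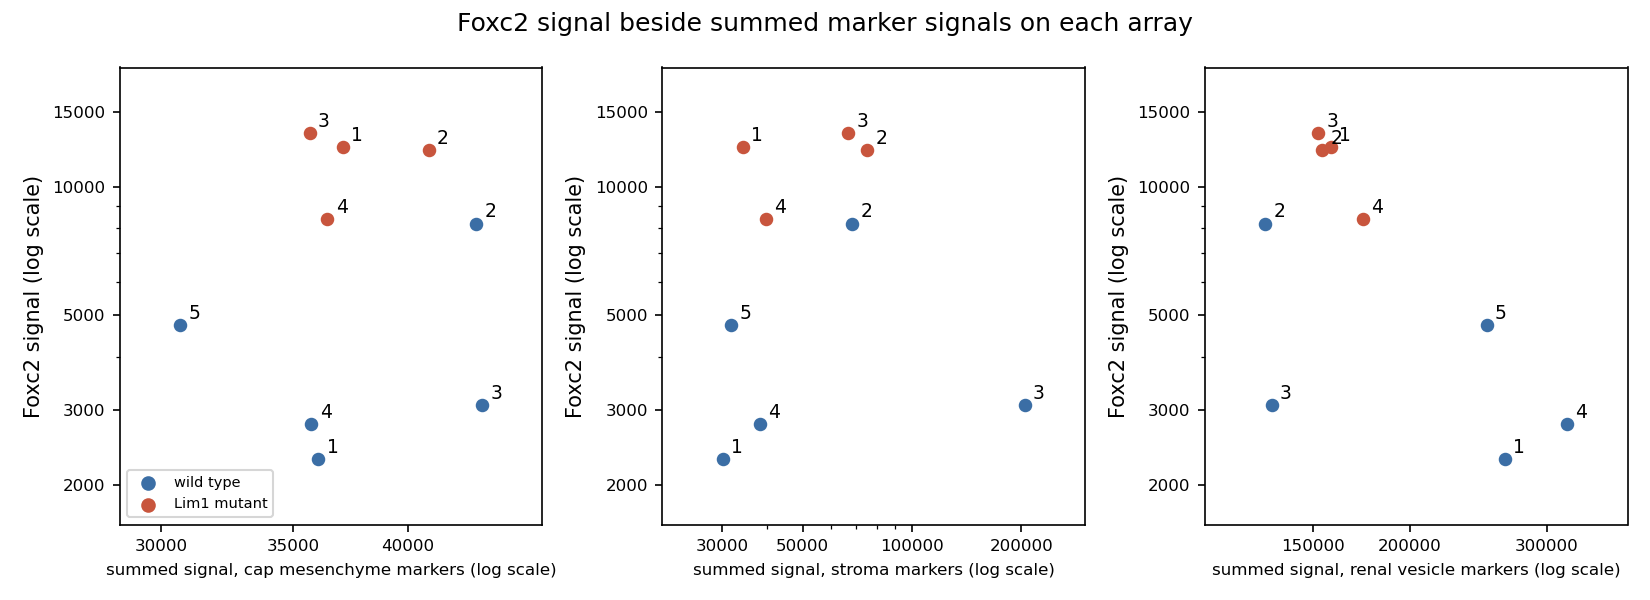
Foxc2 signal (y axis) against the summed signal of cap mesenchyme, stroma and renal vesicle markers (x axes) on each array, all on log scales, with wild-type arrays in blue, mutant arrays in red and the array number beside each point. Mutant Foxc2 signals of 8415 to 13399 lie above all wild-type signals, the same values in every panel. In the renal vesicle panel no wild-type array lies within the mutant range of sums, 152440 to 173720. The renal vesicle markers include Lhx1, the mutated gene. The part of tissue content in the Foxc2 signals was not tested.

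Renal vesicle markers split the wild-type arrays. The summed signal of 12 tested markers was 130230.0 and 132720.0 on wild-type arrays 2 and 3, 250900.0 to 318480.0 on the other 3, and 152440.0 to 173720.0 in the mutants. The 12 include Lhx1, the mutated gene, at its probe set with overlapping groups (-0.86). The sums and counts of this list are therefore not independent of genotype. Of the 12, 4 were above 0 and 8 below, with a median of -0.42. At an unadjusted p under 0.05 stood 3 of the 12, all lower in the mutants, against 6.67% of all tested probe sets. They were Papss2, which makes the sulfate donor of the cell (-3.39 ± 0.95, limma adjusted p = 0.599), and the Notch ligands Dll1 (-1.33 ± 0.48, limma adjusted p = 0.696) and Jag1 (-0.52 ± 0.21, limma adjusted p = 0.73), named after their values were seen. Wnt4, which drives vesicle formation, read 12930.0 to 41700.0 and 15930.0 to 43230.0 (0.10 ± 0.39, limma adjusted p = 0.981). Without wild-type arrays 2 and 3, limma called 0 of the 27022 probe sets tested, podocyte genes included (an unadjusted p under 0.05 was reached by 2159), and the differences of Foxc2 and Podxl were 1.86 and 0.97 (adjusted p = 0.181 and 0.625).

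The genes whose profiles over the 9 arrays lay nearest to each member were listed by the root mean squared distance of centred log2 values, among 13225 other genes. For Foxc2, whose own standard deviation was 0.99, they were Usp30 and Mxra8, at distances of 0.25 and 0.25. For Foxc1 they were Cdc25b and Sgk1 at 0.42 and 0.45, and for Podxl Phpt1 and Slc9a3r1 at 0.25 and 0.27. Mrps14 and Ei24 were nearest to Wt1 at 0.17 and 0.18, Cish and Khnyn to Tcf21 at 0.17 and 0.20, and Prpf40b and Nup155 to Nphs1 at 0.18 and 0.20. With 9 arrays and this many genes, some near profiles are found for any gene.

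**Figure D5:**
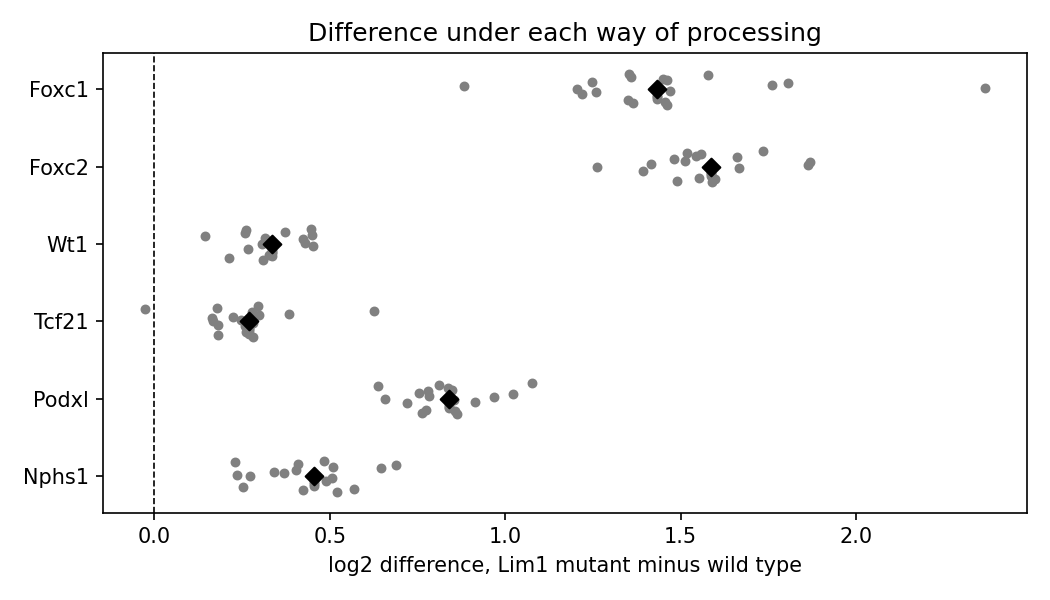
Mutant minus wild-type log2 difference of the 6 tested podocyte genes at the probe set representing each, as reported (black diamonds) and under 21 other ways of processing the data (grey points). Foxc2 ranges from 1.26 to 1.87, and Tcf21 reaches -0.026 without mutant array 2.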

How the data were processed

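Each array's deposited values are linear intensities, 1 for every probe set, from the GCOS software per the submitters' processing notes, whose algorithm the sources used here do not give. Trimming 2% of probe sets at either end left a mean of 1500 on every array, so the deposited intensities had been scaled. Of 45101 probe sets, 34958 had 1 gene symbol in the platform annotation, 932 had several and 9211 had none.

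Intensities were transformed as log2(value + 42.41), the 25th percentile, and quantile normalised. Of 45037 probe sets other than controls, those at or above the 40th percentile of the mean were tested. Group differences were fitted in R 4.3.3 by limma 3.58.1 (lmFit and trended eBayes, two-sided) and adjusted by Benjamini-Hochberg over all 27022. The fit was run on simulated, independent normal values with no effects shared across an array. That setting is simpler than these data, so it does not show how the fit deals with tissue differences between arrays. A gene is represented by its brightest tested probe set. Differences understate changes of dim probe sets. Exact permutation p values, from 9 podocyte probe sets and 2 ratios, are unadjusted unless called adjusted. Those called adjusted are so by Benjamini-Hochberg over the 9 probe sets.

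Named were all podocyte probe sets, Lhx1, Lmx1b, Six2, Foxd1 and Wnt4, list genes with an unadjusted p under 0.05 and no overlap of deposited signals (up to 4 per list and direction), and the 2 nearest profiles. The members and lists were chosen with earlier results of these data known. Replicate numbers do not pair the arrays: same-numbered arrays had correlations of -0.10 to 0.05 between their deviations.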

Additional observations from a re-analysis of the deposited data

Results flagged for a closer look

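Each of the 13 probe sets was examined in each genotype for a single array standing apart, by Dixon's test on the deposited linear signals. This found 6 cases among 26. The rate to be had by chance, about 1.3 (5%), holds for independent, normally distributed values. Linear signals are skewed and the probe sets share arrays, so the number above that rate is not read as a result. Wild-type array 2 stood high for the brighter Podxl probe set at 1891, against 845.7 to 1070.35 on the other wild-type arrays, and for the brighter Ptpro probe set at 221.4, against 22.2 to 72.2. Wild-type array 4 stood high for Nphs1 at 203.9, against 56.1 to 95.1. For Synpo, wild-type array 3 stood high at the dimmer probe set at 107.3, against 25.8 to 47.4, and wild-type array 1 stood low at the brighter one at 5.52, against 93.0 to 119. Among the mutants, array 2 stood high for the dimmer Podxl probe set at 364.3, against 157.1 to 188.3.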

How the results depend on the processing

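No podocyte probe set passed in limma under any of the 21 alternatives run, which changed the normalisation, pseudocount, filter, variance model, array weights and probe set averaging, added a block, or left out arrays. At an unadjusted p under 0.05 the fit as reported had 2. The 5 genes Foxc1, Foxc2, Wt1, Podxl and Nphs1 kept their direction in all 21. Tcf21 ranged from -0.026 (without mutant array 2) to 0.63 (without mutant array 1). Foxc2 ranged from 1.26 (without wild-type arrays 1 and 3) to 1.87, with adjusted p of 0.137 to 0.895. Foxc1 ranged from 0.88 to 2.37, Podxl from 0.64 to 1.08, Wt1 from 0.15 to 0.45 and Nphs1 from 0.23 to 0.69. Nphs1 lay below the filter without mutant array 3 and with the filter at the 60th percentile. The log2 ratio of Foxc2 to Foxc1 was -0.29 to 0.53 with each array left out in turn, turning negative without wild-type array 3 (-0.29) and without mutant array 3 (-0.06), and all its exact permutation p values were at least 0.429.

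With the replicate number as a block, 0 podocyte probe sets passed and the Foxc2 difference was 1.67 (adjusted p = 0.593). Over all probe sets, 9 passed in the fit as reported, 0 with this replicate block (1756 at an unadjusted p under 0.05), 0 without wild-type arrays 1 and 3 (2012) and 0 without wild-type arrays 2 and 3 (2159), and 3 to 8 with 1 array left out. The other alternatives gave 7 to 12. The causes were not tested. Leaving out wild-type arrays 2 and 3 was chosen after seeing the data.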
